A study of Mus musculus with 2 samples.

Results

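Foxp4 sites were examined at 10 genes of the circadian clock: Arntl, Clock, Per1, Per2, Per3, Cry1, Cry2, Csnk1d, Hlf and Nfil3. A peak was counted for a gene when the deposited list named that gene as having the nearest start site, or when any base of the peak lay within 100 kb of the gene body on mm10. This gave 10 of the 3317 peaks, and they fell at 7 of the 10 genes. Per3, Cry1 and Clock had none. The 10 genes are among 21887 protein-coding genes on the reference chromosomes.

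Foxp4 is a forkhead transcription factor, and its sites were mapped by chromatin immunoprecipitation and sequencing (ChIP-seq), with the antibody ABE74 (Millipore). There was 1 library of Foxp4 ChIP and 1 of input DNA, both from stromal vascular cells of inguinal white fat of C57BL/6 mice. These cells are a mixture of fat cell progenitors and other non-adipocyte cells. They were grown for 3 days with 20% serum and then induced for 48 h with 1 µM dexamethasone (a glucocorticoid), 0.5 mM isobutylmethylxanthine, 5 µM troglitazone, 50 nM T3 (a thyroid hormone) and 5 µg/ml insulin in 10% serum. All values below come from the peaks called in the ChIP library by the authors, so there is no replicate error, no comparison of conditions and no test, and read depth is unknown. The sources used here give no time of day at which cells were collected. A peak list gives no expression, so the labelled cell type could not be checked against its markers.

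The circadian clock is a feedback loop of transcription that runs in most cells, fat cells and their progenitors included. The proteins of Arntl (BMAL1) and Clock pair on E-box elements and activate the period and cryptochrome genes, whose products return to the nucleus and repress that pair. Casein kinase 1 delta, made from Csnk1d, phosphorylates period proteins and sets their stability. Hlf encodes a basic leucine zipper (bZIP) factor that activates genes with D-box elements, and Nfil3 encodes one that represses them. Glucocorticoids such as dexamethasone induce Per1 directly and can reset the clock of cultured cells.

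The file named 6 of the 10 clock genes as nearest to a peak (Arntl, Per1, Per2, Csnk1d, Hlf and Nfil3), each for 1 peak, against 9.11% of all protein-coding genes. Within 100 kb of the gene body a peak was found for 7 of the 10, with Cry2 added, against 27.7% of all protein-coding genes. Peaks within 3 kb of the start site were assigned to 3 of the 10, Arntl, Csnk1d and Nfil3, against 2.08% of all protein-coding genes. A peak overlapped the gene body of 4 of the 10, the same 3 and Per2, against 5.72%. The 10 genes were chosen with results of these data known, so these shares describe the genes and do not show that the clock as a whole stands apart. The gene bodies of the 10 had a median length of 45.5 kb, against 17.2 kb over all protein-coding genes, and a longer body widens the window in which a peak is counted.

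**Figure D1:**
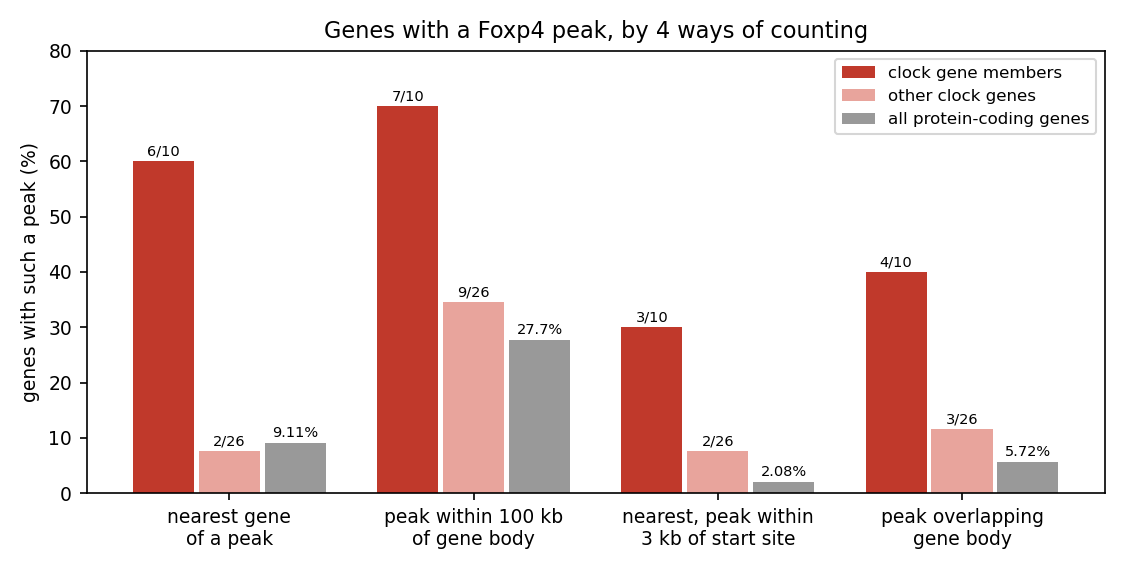
Percentage of genes with a Foxp4 peak under 4 ways of counting, for the 10 clock genes, 26 other clock genes and all 21887 protein-coding genes. Counts stand above the bars of the clock lists, and the 10 genes (6, 7, 3 and 4 of 10) stand above the bars of all genes in each, while the 26 other clock genes have 2, 9, 2 and 3.

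**Figure D2:**
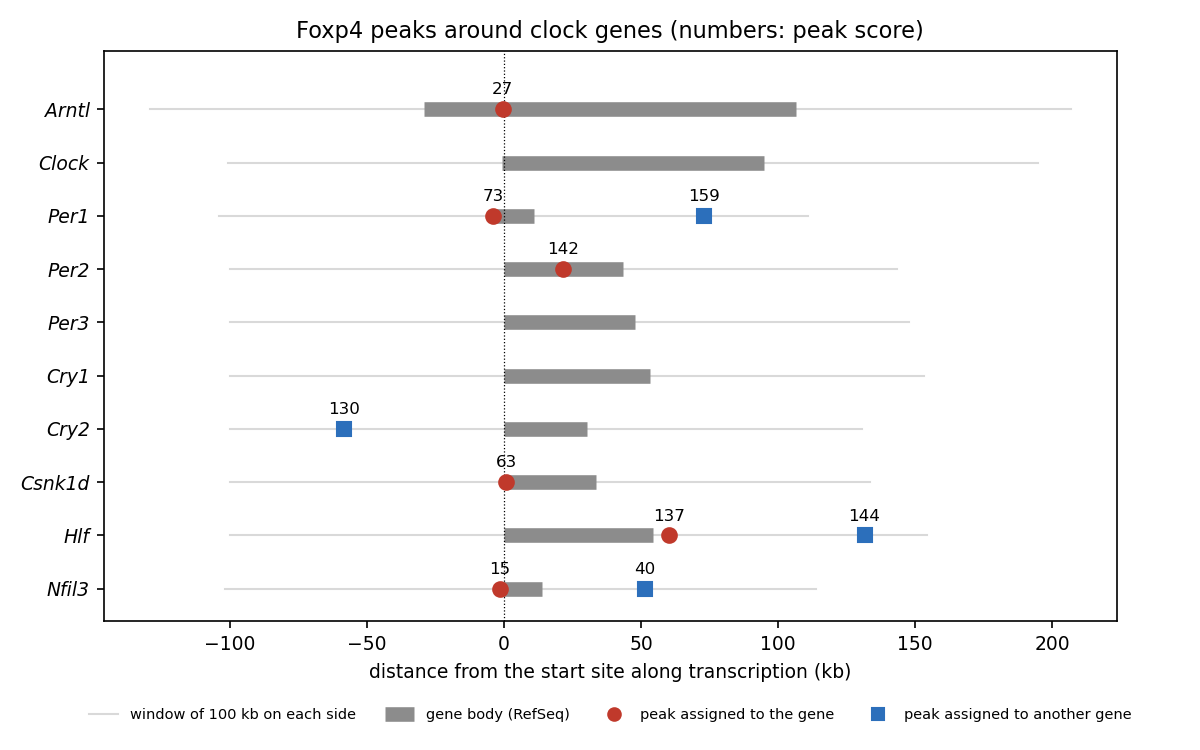
Position of the 10 peaks around each of the 10 clock genes, in kb from the start site along transcription, with the gene body as a thick bar and the peak score as a number. Circles are peaks assigned to the gene and squares are peaks assigned to another gene. Arntl, Csnk1d and Nfil3 have a peak beside the start site, with scores of 27, 63 and 15.

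Sequence was at hand for the 300 bases around annotated start sites (250 before and 50 after, RefSeq, GRCm38.p6, the assembly of mm10), in 12 windows for 8 of the 10 genes, all but Per2 and Csnk1d. None of these windows overlapped a peak, and only 245 of all 32851 windows did. The peak of Arntl came closest, ending 9 bases before the upstream window of that gene. Of the 10 peaks, 1 overlapped the window of a neighbouring gene, Auh, 37.4 kb from the Nfil3 gene body. Over the whole list, 201 of the 3317 peaks overlapped a window of some gene. Among the other clock genes, Rorb, whose receptor activates transcription of Arntl, had a peak over its window. That peak had a score of 21, and 94.9% of all peaks scored higher. Windows of Tob2, near Tef, and Cnpy2, near Timeless, also overlapped a peak and are not shown. These 3 windows are shown because they lie on or beside a peak of Arntl, of the Nfil3 region or of a direct regulator of Arntl, and that of Cry1 because it was the only window of the 10 genes with the forkhead core. Each reads 5′ to 3′ on the strand of its gene. Capitals mark both annotated start sites in Arntl, the forkhead core in Auh, the bases inside the peak in Rorb, and the forkhead core and the E-box in Cry1.
Arntl, chr7:113207215-113207514, plus strand: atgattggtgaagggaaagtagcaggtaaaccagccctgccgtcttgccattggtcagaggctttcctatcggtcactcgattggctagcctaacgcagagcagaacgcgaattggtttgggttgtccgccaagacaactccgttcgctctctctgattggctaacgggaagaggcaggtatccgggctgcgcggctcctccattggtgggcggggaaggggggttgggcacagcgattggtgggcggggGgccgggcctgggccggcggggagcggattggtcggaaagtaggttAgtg
Auh, chr13:52929628-52929927, minus strand: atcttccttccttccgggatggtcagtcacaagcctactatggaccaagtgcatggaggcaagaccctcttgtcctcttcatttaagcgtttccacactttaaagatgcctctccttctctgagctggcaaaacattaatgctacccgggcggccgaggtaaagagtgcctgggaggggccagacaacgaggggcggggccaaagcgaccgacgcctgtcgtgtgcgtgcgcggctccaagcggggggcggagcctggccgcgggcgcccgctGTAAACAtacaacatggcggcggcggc
Rorb, chr19:19111147-19111446, minus strand: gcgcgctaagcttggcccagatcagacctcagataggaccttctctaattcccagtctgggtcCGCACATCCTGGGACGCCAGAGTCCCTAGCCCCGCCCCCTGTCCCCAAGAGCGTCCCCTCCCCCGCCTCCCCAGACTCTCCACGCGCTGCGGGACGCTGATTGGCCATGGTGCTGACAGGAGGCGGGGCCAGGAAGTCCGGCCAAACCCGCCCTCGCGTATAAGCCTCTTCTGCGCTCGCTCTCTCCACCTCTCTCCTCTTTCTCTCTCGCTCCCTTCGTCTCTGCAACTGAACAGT
Cry1, chr10:85185005-85185304, minus strand: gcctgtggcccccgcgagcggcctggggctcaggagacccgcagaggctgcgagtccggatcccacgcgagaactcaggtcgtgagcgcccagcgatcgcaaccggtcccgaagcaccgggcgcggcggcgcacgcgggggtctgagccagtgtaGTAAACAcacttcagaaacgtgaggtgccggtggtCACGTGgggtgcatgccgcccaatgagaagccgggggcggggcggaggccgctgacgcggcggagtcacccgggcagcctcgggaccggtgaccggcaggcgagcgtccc

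The windows were searched on both strands for the forkhead core TGTTTAC, its shorter form TGTTT, the E-box CACGTG, the D-box TTATGTAA and the glucocorticoid receptor pattern ACANNNTGT. The forkhead core always contains the shorter form. It lay in 1 of the 12 windows of the clock genes, that of Cry1, from 95 bases before the start site, and in 3.65% of all 32851 windows. Cry1 itself had no peak within 100 kb. In the Auh window, the forkhead core began 23 bases after the start site, among the 161 bases of the window that lie inside the peak. Over the whole list, 43 of the 245 windows that overlap a peak held it (17.6%). The shorter form lay in 4 of the 12 windows, at Clock, Cry1, Hlf and Per1 (50.5% of all windows), and neither window of Arntl held it. The E-box lay in the windows of Cry1, 60 bases before the start site, and of Per1, 166 bases before it (7.15% of all windows). The D-box lay 205 and 158 bases before the start site of Per3 (0.938% of all windows), and the glucocorticoid receptor pattern lay in none of the 12 (6.85% of all windows). The 237 bases of the Rorb window inside its peak held none of these motifs. The Tob2 window, with all 300 bases inside a peak, also held none. The 166 bases of the Cnpy2 window inside a peak held the shorter form only. A match is only a run of letters, and nothing follows from a missing one beyond these windows.

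Of the activator pair, Arntl had a site at its promoter and Clock had none nearby. The Arntl peak, at chr7:113206855-113207205, was annotated as a promoter peak and centred 435 bp upstream of the start site. Its score was 27, and 89.0% of all peaks scored higher. The RefSeq gene body begins 29.0 kb upstream of this start site, so the same peak also lies inside Arntl as that table delimits it. The closest peak to Clock lay 1060 kb away, at the promoter of Pdgfra, which encodes a platelet-derived growth factor receptor (chr5:75151879-75152409, score 101). A peak at least as close was found for 83.0% of protein-coding genes, and Clock had 0 peaks within 1 Mb of its gene body, against a median of 3 over all protein-coding genes.

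The period genes differed in where their sites lay. The Per2 peak, at chr1:91437542-91438069, was inside the gene, in intron 9 of 22, 21.5 kb from the start site, with a score of 142 that 14.5% of all peaks exceeded. The Per1 peak, at chr11:69094769-69095082, was intergenic and centred 4.02 kb upstream of the start site, with a score of 73 that 42.3% exceeded. In the RefSeq table the Per1 gene body begins 3.84 kb upstream of that start site, which places this peak 26 bp outside the gene. A second peak within 100 kb of Per1, at chr11:69171834-69172123, had the highest score of the 10, 159. It lay 61.9 kb beyond the gene on a (TTTTTG)n simple repeat and was assigned to the lipoxygenase gene Alox12b, and 3 protein-coding genes, Hes7, Aloxe3 and Alox12b, lay between it and Per1. Per3 had no peak within 100 kb. Its closest, at chr4:150872993-150873309, lay 124 kb away, just outside the window, on a (CAAA)n repeat with a score of 43, and was assigned to Errfi1, a feedback inhibitor gene of growth factor receptors.

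No peak was assigned to either cryptochrome gene. Cry2 entered through 1 intergenic peak at chr2:92492067-92492474, 58.0 kb upstream of the gene body, with a score of 130 that 16.7% of peaks exceeded. It was assigned to Slc35c1, which encodes a GDP-fucose transporter and lies between the peak and Cry2. The closest peak to Cry1 lay 555 kb away (chr10:85739737-85740129, score 37), on an annotated LTR repeat, and was assigned to Pwp1. A peak at least as close was found for 19.7% of protein-coding genes for the distance of Cry2 and for 68.8% for that of Cry1.

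**Figure D3:**
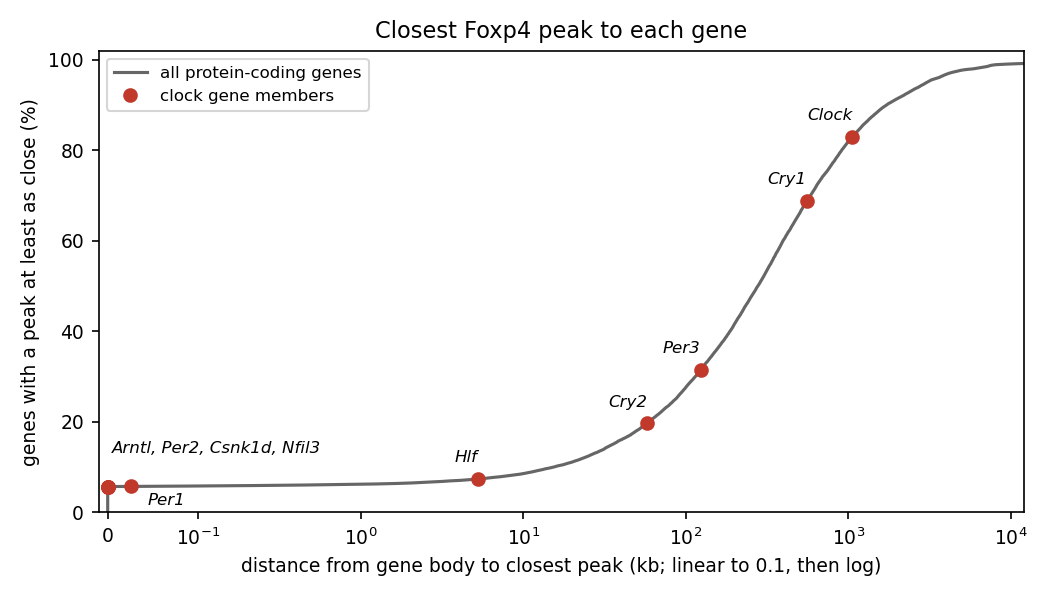
Percentage of all protein-coding genes with a peak at least as close as the distance on the horizontal axis, from the gene body to the closest peak in kb (linear to 0.1 kb, then logarithmic). The curve is all 21887 genes and the points are the 10 clock genes, which run from 0 kb for Arntl, Per2, Csnk1d and Nfil3 to 1060 kb for Clock.

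The kinase gene Csnk1d had a peak in intron 1 of 9, centred 889 bp downstream of its start site, at chr11:120990252-120990636. Its score of 63 was close to the median of all peaks, 65, and 50.5% of peaks scored higher. This was the highest score among the 3 peaks within 3 kb of a start site that were assigned to the 10 genes.

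The bZIP genes Hlf and Nfil3 had 2 peaks each within 100 kb. The peak assigned to Hlf, at chr11:90330406-90331295, lay beyond the end of the gene, 5.24 kb from the gene body and 60.1 kb from the start site. Its score was 137, exceeded by 15.5% of peaks, and at 890 bp it was the widest of the 10, against a median of 393 bp over all peaks. Farther in the same direction, 76.9 kb from the gene body, a peak with a score of 144 lay in intron 2 of 6 of Mmd (chr11:90259173-90259658). The peak assigned to Nfil3, at chr13:52982435-52982784, was centred 1.57 kb upstream of the start site and had the lowest score of the 10, 15, which 98.5% of all peaks exceeded. The file annotated it as intergenic, whereas the RefSeq gene body of Nfil3, which begins 1.84 kb upstream of that start site, contains it. The other peak, with a score of 40 (chr13:52929474-52929788), was the promoter peak of Auh, 46 bp from the start site of that gene, which encodes a mitochondrial enzyme of leucine breakdown.

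The score is the authors' own value for each peak, in a unit that the sources used here do not state, and it was used only to rank peaks within the list. The 10 peaks scored 15 to 159 with a median of 101.5, against 13 to 2569 with a median of 65 over all 3317 peaks. The 6 peaks assigned to a clock gene had a median of 68, and the 4 assigned to a neighbour had a median of 137. Among the 6, the 3 within 3 kb of a start site scored 15, 27 and 63, all below the median of all peaks, and the 3 farther away scored 73, 137 and 142, all above it. Over the whole list the 547 peaks within 3 kb had a median of 62 and the 2770 others one of 65. By the file's annotation, 5 of the 10 were intergenic, 3 intronic and 2 at promoters, against 50.5%, 38.3% and 8.38% of all peaks. A repeat was annotated at 1 of the 10, against 23.3% of all peaks.

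**Figure D4:**
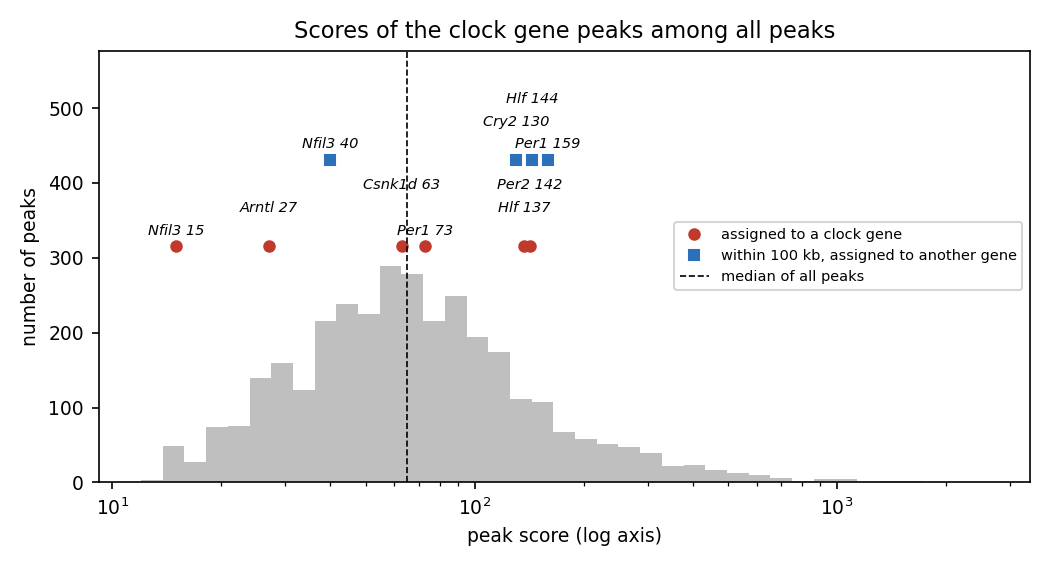
Number of peaks by score (logarithmic axis) over all 3317 peaks, with the 10 peaks of the clock genes placed above the histogram at their scores. Of the 6 peaks assigned to a clock gene, those of Nfil3 (15), Arntl (27) and Csnk1d (63) lie below the median of all peaks (dashed line, 65) and those of Per1 (73), Hlf (137) and Per2 (142) above it.

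A further 26 clock genes, taken from a list written with earlier results known, were examined in the same way. The file named 2 of the 26 as nearest to a peak, against 9.11% of all protein-coding genes. Both peaks lay at the start site used by the file: Rorb (score 21, centred 26 bp upstream) and Usp2, which encodes a deubiquitinase that acts on clock proteins (score 58, centred 160 bp upstream). For Usp2 that start site lies 17899 bp from the one of its promoter window. Within 100 kb of the gene body 9 of the 26 had a peak, against the 27.7% of all protein-coding genes given above. Rora, another nuclear receptor gene that acts on Arntl, had 2 peaks in its intron 1 (scores 61 and 21), which the file assigned to the transcript 9530091C08Rik. Another peak, with a score of 65, lay 76.1 kb from the Rora gene body, in intron 2 of Anxa2, and was assigned to Mir3109. The Rora gene body is 735 kb long, against a median of 17.2 kb over all protein-coding genes. Nampt, the gene of the rate-limiting enzyme of NAD salvage, had a peak 1.85 kb from its gene body with a score of 26, assigned to Gdap10. No peak lay within 100 kb of the other 17. Among these were Nr1d1 and Nr1d2, whose REV-ERB receptors repress Arntl, with the closest peaks 179 kb and 792 kb away, Npas2, which encodes a partner of BMAL1 (391 kb), and Dbp, a D-box activator gene (1010 kb). Over both lists, 8 of 36 clock genes were nearest to a peak, against 9.11% of all protein-coding genes, and 5 of 36 were so within 3 kb of the start site, against 2.08%. Of these 5, Arntl (27), Nfil3 (15) and Rorb (21) scored below 30, and Csnk1d (63) and Usp2 (58) above it. Over the whole list, 431 of the 3317 peaks (13%) scored below 30. When only peaks with a score of at least 30 were kept, Csnk1d was the 1 of the 10 genes with an assigned peak within 3 kb of its start site, against 1.73% of all protein-coding genes under that limit.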

How the data were processed

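The values came from 1 Foxp4 ChIP library. The list of peaks that the authors deposited holds for each peak its mm10 position, annotation, nearest start site and signed distance in bp, and a whole-number score. Per the file headers, a narrowPeak file was annotated by HOMER (annotatePeaks.pl). The submitters' processing notes name MACS2, Bowtie2, SAMtools, Picard and deepTools 3.3.0, with no roles or settings. The use of the input in peak calling and the handling of reads that align to several places were not given in the sources used here. Each could change which peaks appear. Read depth is not in the file. Input values were not analysed here.

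All 3317 peaks were kept, and 1 line without a peak was left out. Assigned genes, classes and distances are those of the file. Gene bodies and protein-coding status came from a RefSeq table (GRCm38.p6) matched by gene number or symbol, in which all 36 clock genes were found. These bodies include predicted transcripts. The build was checked through each peak's distance, which placed the start site within 2 bp of a start site of the RefSeq promoter table for 89.3% of the 2417 peaks whose gene is in it. The strand of Per2 and Csnk1d, which are not in that table, was taken from the gene end nearest to the implied start site. Distances to gene bodies run from edge to edge. They were tested on simulated peaks at known distances. Motifs were exact matches. Python 3.11.15 with pandas 2.3.3, numpy 2.4.6 and matplotlib 3.10.9 was used.

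The 10 genes, the other clock genes and the alternatives were chosen with earlier results of these data known. All 10 genes and all their peaks are described. Of the other clock genes, those nearest to a peak were to be named, and Rora, Nampt, Nr1d1, Nr1d2, Npas2 and Dbp and those in the closing section were named after their values were seen. No test was run: with 1 library no error between cultures can be had. Alternatives covered score limits, windows, repeats, the peak's midpoint and the start sites used.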

Additional observations from a re-analysis of the deposited data

How the results depend on the processing

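Of 31 combinations of a result with an alternative, 24 stayed within 1.5 times the reported value. Score limits moved the counts. With a score of at least 30, 1 of the 10 genes (Csnk1d) had a peak within 3 kb of its start site, in place of 3, because Arntl and Nfil3 scored 27 and 15. At that limit 4 genes were nearest to a peak in place of 6, against 8.07% of all protein-coding genes. A peak within 100 kb was left for 6 genes in place of 7, against 24.7%. When only peaks at or above the median score were kept, 3 genes were nearest to a peak (Per1, Per2 and Hlf) in place of 6. Then 4 genes had a peak within 100 kb in place of 7, and 0 had one within 3 kb. Of the 10 peaks 6 were left, against 1663 of all 3317 peaks. All protein-coding genes then had a nearest peak in 5.14%, one within 100 kb in 16.6% and one within 3 kb in 0.991%. With a window of 20 kb around gene bodies 6 peaks at 6 genes were left (11.1% of all protein-coding genes had one), and with 50 kb the median score was 63 in place of 101.5, because the high-scoring peaks beyond 50 kb dropped out. With 200 kb, 14 peaks at 8 genes were found, with Per3 added, and 41.7% of all protein-coding genes had one. Start sites of the promoter table, with any peak counted, gave 2 of the 8 genes in that table within 3 kb, since Csnk1d is not among them. The share of all genes under that rule was not computed, so this count has no background beside it. Leaving out repeat peaks removed the 1 at Alox12b. No paired analysis was possible because there was 1 ChIP library and no test. Depth is unknown, so a gene without a peak is one without a call in this list and not one shown to lack Foxp4.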

Other observations

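Several of the other clock genes had peaks within 100 kb that the file assigned to another gene. The highest-scoring of these lay at the promoter of Dnajc12, a co-chaperone gene 47.1 kb from Sirt1, with a score of 525 that 1.24% of all peaks exceeded (chr10:63386174-63386738). Tef, a D-box activator gene, lay 31.4 kb from a promoter peak of Tob2 (score 99). Timeless, whose product acts in DNA replication and has been linked to the clock, had 3 peaks within 100 kb, with scores of 104, 72 and 15, the closest 45.0 kb away on a B1 element. Bhlhe40, which encodes a repressor of the activator pair, had 1 peak 61.6 kb away (score 61), and Tipin, whose product binds that of Timeless, had 1 at 78.4 kb (score 59). The Nfil3 region held 11 peaks within 1 Mb of the gene body and that of Per2 held 10, the highest numbers among the 10 genes, whose median was 5.5, against a median of 3 over all protein-coding genes. These values were picked after they were seen and were not tested.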
